A study of Macaca fascicularis with 9 samples.

Results

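The 6 genes described here (of 29128 features) were followed in nuclei of cynomolgus monkey brain. They are the transporters SLC6A11 and SLC6A9, the secreted proteins AGT, MFGE8 and ITIH3, and the adhesion receptor ADGRV1. They were chosen by name, from earlier results of these data, because they differed between animals in astrocytes and because AGT was lower in the OTV group. Their differences between animals and their OTV values are therefore described without a test. The nuclei are the 4411 that the authors named astrocytes, of 79994 in all, and the other named types served as reference.

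Nuclei were isolated from frozen tissue labelled thalamus, from 9 female cynomolgus monkeys (Macaca fascicularis) with no stated genetic modification, and sequenced in droplet libraries, 1 per animal. In the group called saline, 3 animals received 4 intravenous doses of saline. In the group called ASO, 3 animals received 1 intrathecal dose of 4 mg of an antisense oligonucleotide against the long noncoding RNA MALAT1. In the group called OTV, 3 animals were given OTV:MALAT1 intravenously, in 4 doses of 30 mpk each. Every animal was sampled 2 weeks after its last dose. No group received intrathecal saline, so in ASO against saline the oligonucleotide cannot be told apart from the injection and the dosing schedule. The labels used here give no ages.

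Astrocytes take up neurotransmitters, support synapses and secrete proteins into the space around neurons, and they differ between brain regions. Regional differences begin with patterning transcription factors: LHX2 marks the telencephalon, while OTX2 and TCF7L2 mark the diencephalon and midbrain. SLC6A11 encodes GAT-3, the astrocyte transporter that clears GABA, and SLC6A9 encodes GlyT1, which clears glycine. AGT encodes angiotensinogen, the precursor of the angiotensins, and astrocytes are its main source in the brain. MFGE8 encodes a secreted bridging protein that links phosphatidylserine on dying cells to integrins of engulfing cells. ITIH3 encodes a heavy chain of the inter-alpha-trypsin inhibitors, which bind hyaluronan. ADGRV1 encodes a very large adhesion G protein-coupled receptor of the Usher protein complex.

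Astrocyte nuclei numbered 138 to 961 per animal, with median depths of 3138 to 12279.5 UMIs per nucleus and the lowest depth in OTV replicate 3. All 8 astrocyte markers were detected, with a summed level of 6638 to 18328 CPM (UMIs of a gene per 1000000 UMIs of the summed nuclei) in astrocytes, against 125 to 240.0 CPM in oligodendrocytes. Of the astrocyte nuclei 4 (0.0907%) shared a cell barcode with a nucleus of another library. Marker genes set some animals apart from the thalamus label. Thalamic neuron markers in neurons summed to 52.3 to 680.3 CPM. In neurons, the summed level of 5 striatal neuron markers was 7217 CPM in saline replicate 3, 4948 in ASO replicate 3, 2329 in saline replicate 1 and 1353 in ASO replicate 2, and 285 to 531 CPM in the other 5 animals. These sums rest on 364, 23 and 527 neuron nuclei in saline replicates 1 to 3, on 18, 17 and 467 in ASO replicates 1 to 3, and on 98, 112 and 88 in OTV replicates 1 to 3. In astrocytes, LHX2 was at 32.8, 2.25 and 87.3 CPM in saline replicates 1 to 3, at 0.287, 3.29 and 95.9 CPM in ASO replicates 1 to 3, and at 0.249, 0 and 0.289 CPM in OTV replicates 1 to 3. A region score, the mean log2 level of 5 telencephalic genes minus that of 11 diencephalic and midbrain genes, was 2.83 and 2.87 in saline replicate 3 and ASO replicate 3. It was 0.99 in saline replicate 1, -0.91 in ASO replicate 2 and between -2.80 and -2.15 in the other 5 animals, which include every OTV animal. Astrocyte fold changes against saline of the 5 measurable genes are given with and without saline replicate 3 and ASO replicate 3.

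SLC6A11 was high in most animals and low in saline replicate 3 and ASO replicate 3. Its level in astrocytes was 521, 1308 and 76.3 CPM in saline replicates 1 to 3. It was 1366, 1155 and 99.0 CPM in ASO replicates 1 to 3, and 1285, 1474 and 1119.5 CPM in OTV replicates 1 to 3. The highest and lowest animals differed 19.3-fold, and the low values were those of the 2 animals with the highest region scores. Adjusted p-values for single genes come from the quasi-likelihood test of edgeR, with the Benjamini-Hochberg adjustment over all genes tested in a cell type. The fitted log2 fold change of SLC6A11 in ASO against saline was 0.42 (SE 1.04, adjusted p = 1.00, edgeR), smaller than its standard error, and its sign was not stable. It was also 0.42 without saline replicate 3 and ASO replicate 3, but -0.11 with a term for the region score, -0.10 without saline replicate 3 alone, -0.04 without ASO replicate 1 and 1.49 without saline replicate 2.

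SLC6A9 had a similar spread over the animals. It was at 30.1, 80.5 and 3.84 CPM in saline replicates 1 to 3. In ASO replicates 1 to 3 it was at 93.4, 74.1 and 6.60 CPM, and in OTV replicates 1 to 3 at 96.5, 106 and 77.8 CPM. The lowest values were again in saline replicate 3, with 7 UMIs in 284 nuclei, and ASO replicate 3, with 25 UMIs in 495 nuclei. For SLC6A9 in ASO against saline the log2 fold change came to 0.50 (SE 0.99, adjusted p = 1.00, edgeR). It was 0.53 without replicate 3 of both groups, -0.052 without ASO replicate 1 and 1.66 without saline replicate 2.

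ADGRV1 ran the other way and spanned the widest range of the 6 genes. It was at 5116, 422 and 8501 CPM in saline replicates 1 to 3, at 75.1, 1313 and 8190.0 CPM in ASO replicates 1 to 3, and at 25.9, 113 and 58.1 CPM in OTV replicates 1 to 3. The highest animal was 328-fold above the lowest. All 3 OTV animals lay below every saline animal, but ASO replicate 1 lay within the OTV range. In saline replicate 3 a median astrocyte nucleus held 53 ADGRV1 UMIs in ASO replicate 3 it held 58 and in saline replicate 1 it held 38, whereas it held 0 in the other 6 animals of all 3 groups. The ASO against saline log2 fold change of ADGRV1 was -0.64 (SE 1.44, adjusted p = 1.00, edgeR), and without saline replicate 3 it was 0.13. With both animals of region scores above 2 left out it was -2.04.

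MFGE8 was highest in the 3 animals with the highest ADGRV1, over a narrower range, but lowest in ASO replicate 2, which had the next highest ADGRV1. It was at 360.2, 222 and 398 CPM in saline replicates 1 to 3, at 181, 151 and 465 CPM in ASO replicates 1 to 3, and at 165, 208 and 171 CPM in OTV replicates 1 to 3. The OTV animals lay below all saline animals by a small margin, 208 against 222 CPM at the closest, and lay within the ASO range. For MFGE8 the ASO against saline log2 fold change came to -0.36 (SE 0.40, adjusted p = 0.992, edgeR), and to -0.86 without replicate 3 of both groups.

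AGT did not follow that order. It was at 239, 200.1 and 133 CPM in saline replicates 1 to 3, at 239, 285 and 191 CPM in ASO replicates 1 to 3, and at 75.5, 102 and 65.9 CPM in OTV replicates 1 to 3. Every OTV animal lay below every saline and every ASO animal. Saline replicate 2 and ASO replicate 1, whose region scores of -2.15 and -2.26 are closest to those of the OTV animals, held 200.1 and 239 CPM. The ASO and saline groups differed in AGT by 0.27 on the log2 scale (SE 0.24, adjusted p = 0.983, edgeR), and by 0.20 without replicate 3 of both groups.

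ITIH3 was close to absent from astrocytes. It gave 5 UMIs in all 4411 nuclei, 3 of them in ASO replicate 1 and 1 each in OTV replicates 1 and 3, out of 34872427 astrocyte UMIs. No saline animal had an ITIH3 UMI in astrocytes. A count of 0 there allows up to 1.17, 0.322 and 1.65 CPM in saline replicates 1 to 3, a limit that covers counting error only. ITIH3 did not pass the filter on low counts, and no fold change was fitted for it in astrocytes.

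**Figure D1:**
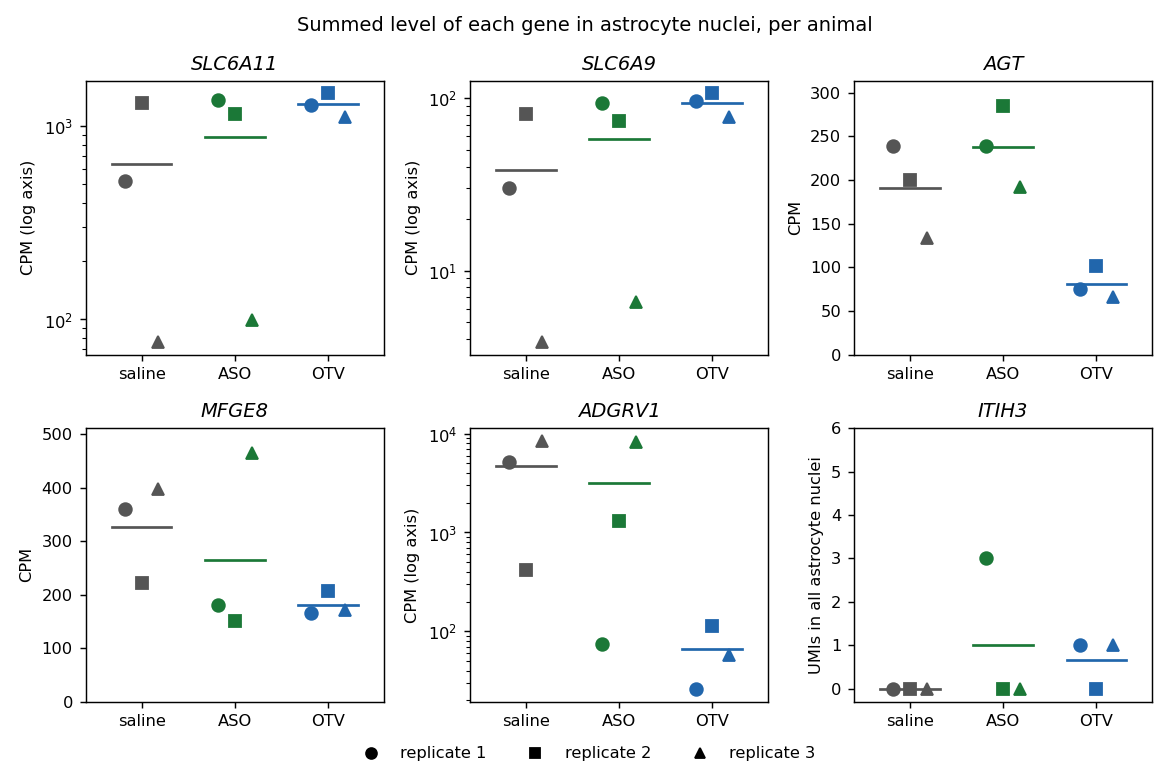
Level of each gene in astrocyte nuclei, 1 point per animal, with the mean of each group as a line; the vertical axis is CPM (a log axis for SLC6A11, SLC6A9 and ADGRV1), and UMIs for ITIH3. Replicate 3 of saline and of ASO is low for SLC6A11 and SLC6A9 and high for ADGRV1 and MFGE8, and for AGT the 3 OTV animals, at 65.9 to 102 CPM, lie below all others.

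None of the 5 genes that passed the filter was called in ASO against saline, by edgeR or by DESeq2, and the smallest unadjusted p was 0.292, for AGT. Over all 13608 genes tested in astrocytes, 2 were called, or 0.0147%, while 830 had an unadjusted p under 0.05 in edgeR. DESeq2 called 70 genes in that contrast. In tests on simulated counts of this design, 23% of genes changed by 1 log2 unit were recovered, and 98% of those changed by 2. The changed genes were drawn only from genes with high counts, so the shares do not describe genes with low counts. The simulation gave all genes 1 common spread between animals (dispersion 0.0906). SLC6A11, SLC6A9 and ADGRV1 had wide fitted standard errors, 1.04, 0.99 and 1.44, so these recovery shares do not apply to them. The absence of calls for these 5 genes therefore does not show equal levels in saline and ASO animals.

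In OTV against saline 3 of the 5 genes, AGT, MFGE8 and ADGRV1, were lower without overlap between the animals, where 20.3% of all genes tested were lower in that way. In OTV against ASO only AGT was, where 24.9% of all genes were. These shares are read as description, since the choice of genes used the OTV group, and both comparisons share the OTV animals. Of all genes, 2094 (15.4%) were called in OTV against saline and 2990 (22%) in OTV against ASO. The first count was 882, 1060 and 1262 without OTV replicate 3, saline replicate 1 and saline replicate 2, and the second 1597, 1749 and 1962 without OTV replicate 3, ASO replicate 1 and ASO replicate 3.

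AGT in the OTV group averaged 81.2 ± 18.7 CPM (SD, n = 3), against 191 ± 53.3 in saline and 238 ± 46.7 in ASO. The OTV mean was 42.5% of the saline mean and 34.0% of the ASO mean. The fitted log2 difference was -1.22 (SE 0.25) from saline and -1.48 (SE 0.25) from ASO. With saline replicate 3 and ASO replicate 3 left out, it was -1.39 from saline and -1.60 from ASO. With a term for the region score in the fit, it was -1.48 and -1.69. Summed levels do not tell fewer AGT-expressing nuclei apart from less AGT RNA per nucleus.

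ADGRV1, MFGE8 and the transporters behaved differently when the region score was included. The log2 difference of OTV from saline was -6.20 for ADGRV1 (SE 1.81), and -2.35 with the score in the fit. For MFGE8 it was -0.82 (SE 0.40), and -0.02 with the score. For SLC6A11 it was 1.07 (SE 1.04), and -0.75 with the score, and for SLC6A9 it was 1.27 (SE 1.00), and -0.37 with the score. The signs for both transporters thus turned, from values near their standard errors, and the value for MFGE8 was near 0. With saline replicate 3 and ASO replicate 3 left out instead, the OTV against saline values were 0.56 for SLC6A11, 0.79 for SLC6A9, -0.63 for MFGE8 and -5.43 for ADGRV1, all in the direction found with every animal. In OTV against ASO the values were 0.64 for SLC6A11, 0.77 for SLC6A9 and -0.46 for MFGE8. Over 17 alternatives they ran from -0.63 to 1.12, from -0.44 to 1.34 and from -0.72 to 0.30, so their signs were not stable. For ADGRV1 the OTV against ASO value was -5.56 (SE 1.76), and it ran from -6.14 to -1.79. Because all OTV animals lie at the low end of the region score, treatment and tissue region cannot be told apart for any of the 5 genes, AGT included.

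**Figure D2:**
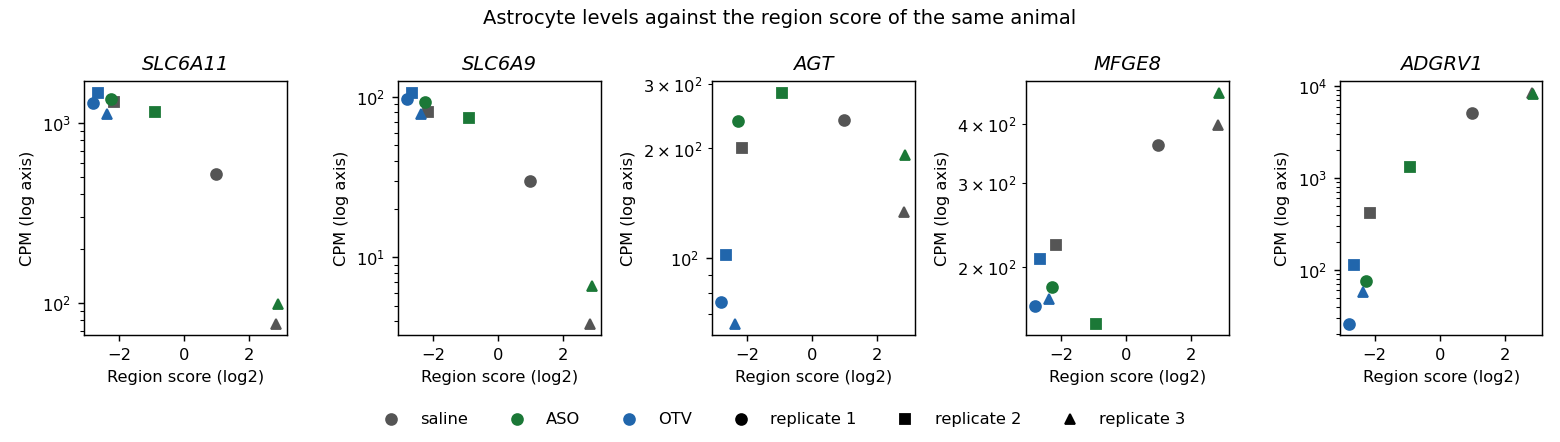
Level of each gene in astrocytes (CPM, log axis) against the region score of the same animal (log2), 1 point per animal. SLC6A11 and SLC6A9 are lowest, and ADGRV1 and MFGE8 highest, in the 2 animals with scores of 2.83 and 2.87, while AGT in the OTV animals lies below that of saline replicate 2 and ASO replicate 1 at nearby scores.

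The depth of the nuclei differed between animals, so each nucleus was also thinned to 1000 UMIs. The share of thinned astrocyte nuclei with an AGT UMI was 21.1%, 17.5% and 12.7% in saline replicates 1 to 3. It was 22.6%, 20.3% and 17.8% in ASO replicates 1 to 3, and 8.81%, 10.0% and 5.62% in OTV replicates 1 to 3. The OTV animals stayed below all others at equal depth, by a small margin at the closest. That margin rests on 18 of 180 nuclei in OTV replicate 2 and 36 of 284 in saline replicate 3. Without thinning the shares ran from 50.7% to 94.2% in saline and ASO animals and from 17.6% to 40% in OTV animals. In oligodendrocytes the thinned AGT share ran from 0.255% to 3.39% over all animals, with median depths of 2558 to 7812 UMIs.

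For ADGRV1 the thinned share was 98.9% in saline replicate 3 (95% Wilson interval 96.9% to 99.6%) and 97.8% in ASO replicate 3 (96.1% to 98.8%). It was 66.2% in saline replicate 1, 31.9% in ASO replicate 2 and 14.8% in saline replicate 2. In ASO replicate 1 it was 5.24%, and in the OTV animals 1.43% to 7.22%. For SLC6A11 the thinned share was 8.45% in saline replicate 3 and 10.5% in ASO replicate 3, 33.5% in saline replicate 1, and 55.1% to 68.9% in the other 6 animals. The 2 genes thus divided the animals into those whose astrocytes nearly all held ADGRV1, those whose astrocytes mostly held SLC6A11, and those with both kinds of nuclei in number, saline replicates 1 and 2 and ASO replicate 2.

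Within animals the odds ratio of SLC6A11 and ADGRV1 was below 1 in 6 of 7 animals. The odds ratio of detecting both in a thinned nucleus was 0.15 in saline replicate 1, 0.23 in saline replicate 2, 0.54 in ASO replicate 1, 0.18 in ASO replicate 2, 0.26 in OTV replicate 2 and 0.30 in OTV replicate 3. It was 2.79 in ASO replicate 3, where nearly all nuclei held ADGRV1, and saline replicate 3 and OTV replicate 1 had under 10 nuclei in a margin and so no value. In total 205 nuclei held both genes, against 297 for independent detection within each animal. At 2000 UMIs per nucleus the ratio was below 1 in all 6 animals with a value.

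SLC6A11 and MFGE8 had odds ratios above 1 in 8 of 9 animals, with a median of 1.46. SLC6A11 and SLC6A9 had ratios above 1 in 5 of the 6 animals with a value, with a median of 1.52. AGT and SLC6A11 had ratios between 0.629 and 1.54 with a median of 1.00, and AGT and ADGRV1 had a median of 1.05 over 7 animals. SLC6A9 and ADGRV1 had a median of 0.764 over 5 animals, with 21 nuclei holding both against 31.5 for independent detection. SLC6A9 and AGT had a median of 0.776 over 6 animals and a lowest value of 0.146. These ratios are descriptions over the nuclei of each animal, which share a library, and 10 pairs were examined.

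**Figure D3:**
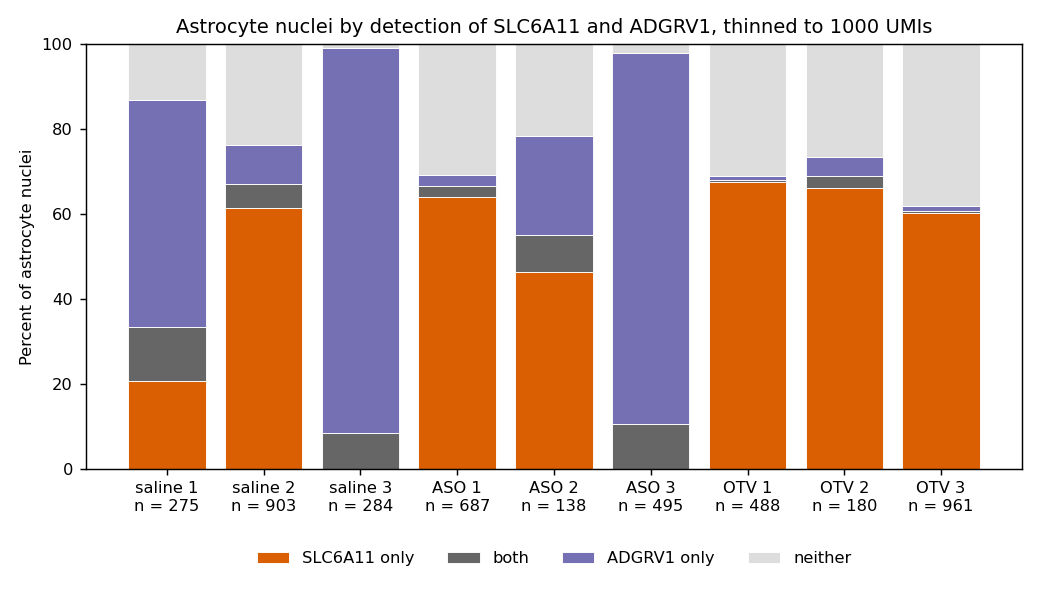
Percent of astrocyte nuclei, thinned to 1000 UMIs, in which SLC6A11 only, ADGRV1 only, both or neither were detected, 1 stacked bar per animal with its number of nuclei. ADGRV1-only nuclei make up 90.5% in saline replicate 3 and 87.3% in ASO replicate 3, and SLC6A11-only nuclei make up 60.2% to 67.4% in the 3 OTV animals.

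The nuclei with only SLC6A11 or only ADGRV1 also differed in genes that did not enter the division. Over all animals, LHX2 gave 563 UMIs in 992 ADGRV1-only nuclei and 4 UMIs in 2142 SLC6A11-only nuclei. Of the 563 UMIs, 141 came from saline replicate 3 and 331 from ASO replicate 3, which had no SLC6A11-only nuclei. The summed counts therefore compare mostly different animals. Of the SLC6A11-only nuclei 972 held a single SLC6A11 UMI after thinning, and of the ADGRV1-only nuclei 74 held a single ADGRV1 UMI, so these kinds are ranges of detection and not cell types. OTX2 gave 82 and 428 UMIs in the same nuclei. Saline replicate 1 held both kinds within 1 library. Its 147 ADGRV1-only nuclei held LHX2 at 50.1 CPM and OTX2 at 8.71 CPM. Its 57 SLC6A11-only nuclei held LHX2 at 1.90 CPM and OTX2 at 41.8 CPM. In saline replicate 2 LHX2 was at 18.8 CPM in ADGRV1-only and 0.511 CPM in SLC6A11-only nuclei, and in ASO replicate 2 at 12.9 and 0 CPM. The LHX2 values of ASO replicate 2 rest on 5 and 0 UMIs. OTX2 was at 21.3 and 22.3 CPM in saline replicate 2 and at 18.1 and 23.4 CPM in ASO replicate 2. LHX2 was thus higher in ADGRV1-only nuclei in all 3 animals with at least 20 nuclei of each kind, while OTX2 was far apart in saline replicate 1 only.

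SLC6A9 differed in 1 direction between these kinds of nuclei, and MFGE8 and AGT did not. In saline replicate 1 SLC6A9 was at 14.5 CPM in ADGRV1-only and 76.1 CPM in SLC6A11-only nuclei, and MFGE8 at 444 and 204 CPM. AGT there was at 246 and 211 CPM. In saline replicate 2 SLC6A9 was at 17.6 and 93.9 CPM and AGT at 159 and 210 CPM, but MFGE8 ran the other way, at 159 and 235 CPM. In ASO replicate 2 SLC6A9 was at 33.6 and 77.9 CPM, while MFGE8, at 139.6 and 141 CPM, was nearly equal and AGT was at 315 and 272 CPM. SLC6A9 was thus higher in SLC6A11-only nuclei in all 3 animals with at least 20 nuclei of each kind, and the directions for MFGE8 and AGT varied.

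The ADGRV1-only nuclei were not alike in all animals. In saline replicate 2 the 84 such nuclei held LHX2 at only 18.8 CPM and GFAP, the intermediate filament of fibrous and reactive astrocytes, at 1193 CPM. The 555 SLC6A11-only nuclei of that animal held GFAP at 139 CPM. GFAP was also higher in ADGRV1-only than in SLC6A11-only nuclei in saline replicate 1, at 537 against 202 CPM. The same held in ASO replicate 2, at 574 against 180 CPM. In saline replicate 3, which had no SLC6A11-only nuclei, ADGRV1-only nuclei held LHX2 at 85.1 CPM and GFAP at 116 CPM.

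AGT was compared within SLC6A11-only nuclei, a comparison added after the data were seen. It was at 211 and 210 CPM in saline replicates 1 and 2 and at 235 and 272 CPM in ASO replicates 1 and 2. In OTV replicates 1 to 3 it was at 81.5, 111 and 58.3 CPM. Saline replicate 3 and ASO replicate 3 had no such nuclei. The OTV animals lay below the other 4. In nuclei with neither gene AGT was at 54.6 to 86.7 CPM in the OTV animals and at 196 to 320 CPM in the 4 saline and ASO animals with at least 20 such nuclei. These nuclei are part of the same astrocytes, from the same animals, in which AGT was chosen as lower in OTV. The values in them are therefore a description and do not support the lower AGT.

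The authors placed astrocytes in 2 clusters, 3873 nuclei in cluster 6 and 538 in cluster 12, which is shallow. Cluster 12 held 23.4% and 27.5% of astrocytes in OTV replicates 1 and 3 and at most 15.5% in the other animals. With cluster 6 alone the SLC6A11 level was 72.7 to 1308 CPM in saline, 98.6 to 1365 CPM in ASO and 1172 to 1485 CPM in OTV animals, close to the values over all astrocytes.

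**Figure D4:**
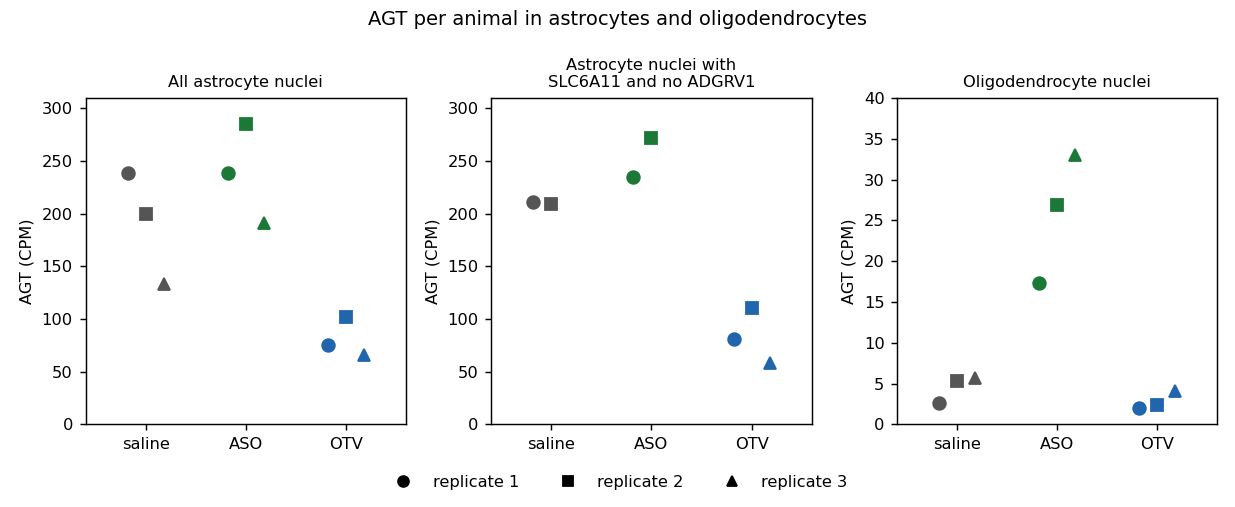
AGT per animal (CPM, axes from 0) in all astrocyte nuclei, in astrocyte nuclei with SLC6A11 and no ADGRV1 after thinning, and in oligodendrocyte nuclei, where the axis runs to 40. The OTV animals are lowest in both astrocyte panels, and in oligodendrocytes the ASO animals, at 17.3 to 33.0 CPM, lie above all others.

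AGT rose in oligodendrocytes after the intrathecal ASO. It was at 2.65, 5.28 and 5.63 CPM in saline replicates 1 to 3 and at 17.3, 26.9 and 33.0 CPM in ASO replicates 1 to 3. In OTV replicates 1 to 3 it was at 2.06, 2.32 and 4.14 CPM. All 3 ASO animals lay above all saline and OTV animals. Fitted against saline, the ASO log2 fold change was 2.52 (SE 0.38, adjusted p = 0.0354, edgeR), and AGT was 1 of 28 genes called higher among 20036 tested (0.14%), while 11.6% of genes were higher without overlap. The call was lost when any of the 6 compared animals or OTV replicate 2 was left out, with adjusted p between 0.0566 and 0.104, and the fold change stayed between 2.22 and 2.73. It was also lost among the 6 compared animals and without the animals of region scores above 2. DESeq2 kept it (adjusted p = 4.8e-08), and over 12 alternatives the highest adjusted p was 0.111.

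The higher AGT was spread over the oligodendrocyte clusters. In 6 of 7 clusters every ASO animal lay above every saline animal, and in the remaining cluster 10 the ranges overlapped, at 4.14 to 7.14 against 0 to 5.59 CPM. The clusters come from the same animals and are not separate observations. The level differed between them. Cluster 2 held 26.9 to 48.2 CPM in ASO and 3.87 to 7.12 CPM in saline animals, and cluster 5 held 5.69 to 16.5 and 0 to 4.51 CPM. Beside this, the AGT level in oligodendrocytes was 7.24%, 9.45% and 17.2% of that in astrocytes in ASO replicates 1 to 3, and 1.11% to 4.22% in saline animals. The summed astrocyte markers in oligodendrocytes were 1.11% to 2.53% of their astrocyte level in ASO animals and 1.02% to 2.04% in saline animals. SLC6A11 in oligodendrocytes was 0.0514% to 0.485% of its astrocyte level in the ASO animals, against 0.102%, 0.157% and 2.73% in saline replicates 1 to 3. MFGE8 was at 4.88%, 8.57% and 0.867% of its astrocyte level in ASO replicates 1 to 3, against 1.84% to 3.34% in saline animals, and ADGRV1 at 6.75%, 0.404% and 0.260%, against 0.201% to 1.63%. The part of astrocyte RNA in the AGT difference was not tested.

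The rise of AGT was compared between cell types after the data were seen. Its log2 change was larger by 2.30 in oligodendrocytes than in astrocytes (SE 0.55, unadjusted p = 0.0029, adjusted p = 0.346 in edgeR over 16976 genes). The difference did not pass the adjustment. In myeloid nuclei AGT was at 11.01, 8.19 and 15.0 CPM in ASO animals and at 1.96, 7.58 and 6.64 CPM in saline animals, without overlap, as were 10.5% of genes in that direction. Its log2 fold change there was 1.06 (SE 0.45, adjusted p = 0.442, edgeR), in a contrast in which 0.197% of 12667 genes were called. In oligodendrocyte precursor cells (OPCs) it was 0.59 (SE 0.44, adjusted p = 0.727 by the same edgeR test).

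The order of cell types differed among the genes. For AGT, astrocytes had the highest median over animals, 191 CPM, and did not overlap with any other type, and the ranges of myeloid cells, oligodendrocytes, OPCs and neurons overlapped. For MFGE8, astrocytes had a median of 208 CPM and did not overlap with OPCs, at 34.3 CPM. MFGE8 in OPCs, myeloid cells, oligodendrocytes and neurons had overlapping ranges. For ADGRV1 the astrocyte median was 422 CPM, but its range of 25.9 to 8501 CPM overlapped with that of neurons, 6.96 to 119 CPM.

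SLC6A11 had a median of 1155 CPM in astrocytes, 60.6 CPM in neurons, 20.3 CPM in OPCs, 11.9 CPM in myeloid cells and 2.05 CPM in oligodendrocytes, and each type's range overlapped with the next. SLC6A9 was not specific to astrocytes. Its median was highest in oligodendrocytes, 106 CPM with a range of 89.3 to 135 CPM, followed by astrocytes at 77.8 CPM, OPCs at 23.1 CPM, neurons at 7.14 CPM and myeloid cells at 6.64 CPM. The ranges of neighbours in this order overlapped. These comparisons of types are descriptions, since the clusters were made from the same genes.

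In oligodendrocytes SLC6A9 was at 135, 135 and 117 CPM in saline animals and at 89.3, 101 and 106 CPM in ASO animals, lower without overlap, as were 7.49% of genes. Its log2 fold change came to -0.42 (SE 0.10, adjusted p = 0.132, edgeR), while DESeq2 gave an adjusted p of 0.0236. In myeloid nuclei SLC6A11 was at 45.6, 3.93 and 34.5 CPM in saline animals, at 1.78, 1.59 and 0.384 CPM in ASO animals and at 14.2, 18.8 and 11.9 CPM in OTV animals. The ASO values rest on 5, 6 and 1 UMIs and lie below all saline values, as for 6.93% of genes. The fitted ASO against saline value was -4.43 on the log2 scale (SE 0.92, adjusted p = 0.135, edgeR). Without saline replicate 2 it was called (adjusted p = 0.0018), as it was by DESeq2 (adjusted p = 1.2e-05). All 8 astrocyte markers in myeloid nuclei summed to 1897 to 2553 CPM in saline, 784 to 1212 CPM in ASO and 687 to 1619 CPM in OTV animals, and their part in the SLC6A11 difference was not tested.

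ITIH3 had more UMIs in oligodendrocytes, which are 61578 of the 79994 nuclei, than in any other type. Most of them came from OTV animals. As CPM the types overlapped: the highest OTV animal was at 0.534 CPM in OPCs, where the group held 2 UMIs. In myeloid nuclei it was at 0.895 CPM, on 1 UMI. Oligodendrocytes held 78 ITIH3 UMIs: 1, 0 and 0 in saline replicates 1 to 3, 2, 5 and 1 in ASO replicates 1 to 3, and 51, 8 and 10 in OTV replicates 1 to 3. The corresponding OTV levels were 1.04, 0.488 and 0.538 CPM, above all ASO values, which reached 0.0571 CPM. Cluster 10 held 39 of the OTV UMIs and 4 from ASO animals. ITIH3 passed the filter on low counts only through the OTV animals, and no test of ASO against saline is given for it. In OTV animals 14.7% of all genes in oligodendrocytes were higher than in saline animals without overlap.

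**Figure D5:**
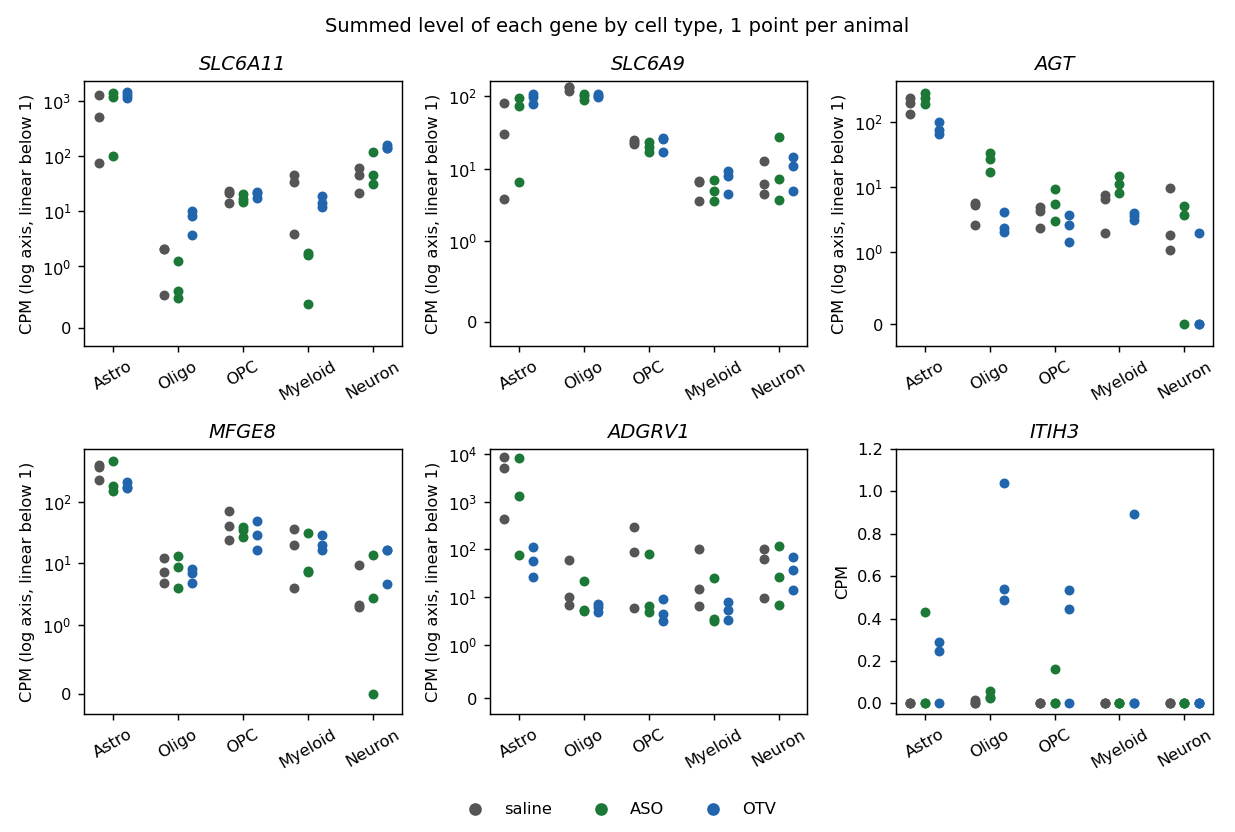
Level of each gene by cell type, 1 point per animal and colour per group, on a log axis that is linear below 1 CPM (linear throughout for ITIH3). AGT and MFGE8 are highest in astrocytes in every animal, SLC6A9 reaches similar levels in oligodendrocytes and astrocytes, and ITIH3 in oligodendrocytes is at 0.488 to 1.04 CPM in the 3 OTV animals and at most 0.0571 CPM in the others.

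Outside astrocytes, ADGRV1 was higher in some of the animals with high astrocyte levels. In OPCs it was at 292, 87.4 and 79.2 CPM in saline replicates 1 and 3 and ASO replicate 3, and at 3.22 to 9.08 CPM in the other 6 animals, which include ASO replicate 2 with 1313 CPM in astrocytes. In oligodendrocytes it was at 59.8 CPM in saline replicate 3 and 21.3 CPM in ASO replicate 3, against 4.79 to 10.3 CPM in the others, which include saline replicate 1. In neurons it was at 9.57 to 101 CPM in saline, 6.96 to 119 CPM in ASO and 13.8 to 70.6 CPM in OTV animals. The level in oligodendrocytes was 0.704% and 0.260% of that in astrocytes in those 2 animals. An unnamed cluster, number 16, held ADGRV1 at 1198 to 1692 CPM in the 3 saline and ASO animals with at least 5 of its nuclei.

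Correlations with other genes within animals were examined over 3294 genes seen in at least 5% of thinned astrocyte nuclei. A positive correlation in all 9 animals was found with 13 genes for SLC6A11, 10 for ADGRV1, 5 each for AGT and MFGE8 and 2 for SLC6A9. For SLC6A11 the highest mean correlations were with RORA (0.19), an orphan nuclear receptor, and with the Hedgehog receptor PTCH1 (0.095). For ADGRV1 they were with the cytoskeletal genes MAP2 (0.16), ANK2 (0.11) and SEPTIN11 (0.099). For AGT, MFGE8 and SLC6A9 no mean correlation of these genes was above 0.067, and none is named. The values describe sparse nuclei of 1 library each and are weak. The counts are small for the number of genes searched, so that the named genes are not shown to follow SLC6A11 or ADGRV1.

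Genes that work with the 6 were examined in lists with the 6 themselves left out. They hold 69 places tested, with 68 different genes, in 6 lists. None was called in ASO against saline by edgeR or DESeq2, and 4 had an unadjusted p under 0.05. In OTV against saline 6 were called higher and 2 lower, where 6.27% and 9.12% of all genes were, and in OTV against ASO 9 higher and 5 lower, where 9.51% and 12.5% of all genes were. All adjusted p-values in the next paragraphs come from the edgeR fit over 13608 genes. There, rose and fell mean higher and lower in the OTV animals. All OTV animals lie at the low end of the region score, so treatment and tissue region cannot be told apart for the listed genes either.

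Among 12 tested genes of GABA and glycine handling, ABAT, which breaks down GABA, rose in OTV against ASO by 0.84 on the log2 scale (SE 0.20, adjusted p = 0.0168), from 229 ± 42.2 to 386 ± 75.4 CPM (SD, n = 3 each). The call was lost under 2 of 17 alternatives. The median log2 change of the list was 0.32 against saline and 0.35 against ASO, where it was -0.02 and -0.03 over all genes.

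Of 8 tested genes of the renin-angiotensin system, 1 rose and 1 fell in both comparisons, which share the OTV animals. ATP6AP2, the prorenin receptor, fell from 45.3 ± 6.0 CPM in saline to 20.2 ± 5.32 CPM in OTV animals (SD, n = 3 each; log2 fold change -1.11, adjusted p = 0.0101). THOP1, a peptidase that cleaves angiotensin I, rose from 8.58 ± 0.34 to 22.9 ± 5.00 CPM (log2 fold change 1.44, adjusted p = 0.0117). The call for THOP1 was lost under 3 of 17 alternatives and that for ATP6AP2 under 1, without OTV replicate 3. Against ASO the log2 changes were -1.06 and 1.45, and the call for THOP1 was lost under 1 alternative.

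Of 14 tested engulfment genes, 3 rose in each OTV comparison and 0 fell. LRP1, an endocytic receptor, rose by 1.40 on the log2 scale against saline (SE 0.25, adjusted p = 0.0066), from 183 ± 29.1 to 468 ± 131 CPM (SD, n = 3 each). DOCK1, a Rac activator, rose by 0.63 (adjusted p = 0.0198), and GAS6, a ligand of TAM receptors, by 1.14 (adjusted p = 0.0259). The call for DOCK1 was lost under 4 of 17 alternatives, with an adjusted p up to 0.0691. The call for GAS6 was lost under 8 of 17 alternatives, among them the one without saline replicate 3 and ASO replicate 3. Against ASO, LRP1 rose by 1.07, DOCK1 by 0.77 and ELMO1, the partner of DOCK1, by 2.6 (adjusted p = 0.0098). The median change of the list was 0.05 against saline and 0.13 against ASO.

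Of 12 tested genes around ITIH3, ITIH4 fell by 1.19 on the log2 scale in OTV against saline (adjusted p = 0.0190), from 12.5 ± 1.08 to 5.11 ± 0.79 CPM (SD, n = 3 each). HAPLN2, a hyaluronan link protein known from oligodendrocytes, rose by 1.77 (adjusted p = 0.0359), and the summed oligodendrocyte markers in astrocytes were 303 to 360 CPM in saline, 397 to 636 CPM in ASO and 421 to 654 CPM in OTV animals. Their part in the HAPLN2 difference was not tested. Its call was lost under 12 of 17 alternatives, and that of ITIH4 under 5. Against ASO the log2 changes of ITIH4 and HAPLN2 were -0.94 and 1.69, both called, and the calls were lost under 13 and 10 of 17 alternatives. TNFAIP6, which transfers heavy chains to hyaluronan, was lower in OTV than in ASO animals by 2.37 (adjusted p = 0.0467), a call lost under 7 of 17 alternatives. It was at 2.73, 8.05 and 1.65 CPM in saline and 15.2, 27.4 and 4.49 CPM in ASO animals. The OTV values of TNFAIP6, 2.74, 3.55 and 2.31 CPM, lay within the saline range. The median of the list was -0.57 against saline and -0.98 against ASO.

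Of 14 tested genes of the Usher complex and adhesion receptors, 0 were called in OTV against saline by edgeR. Against ASO, PDZD7, a scaffold of the Usher complex, fell by 1.79 on the log2 scale (adjusted p = 0.0153), and the adhesion receptors ADGRB2 and ADGRG1 rose by 1.05 and 0.72 (adjusted p = 0.0446 and 0.0389). The call for PDZD7 was lost under 3 of 16 alternatives. The call for ADGRB2 was lost under 8 and that for ADGRG1 under 6 of 17 alternatives. Of 9 tested genes of reactive astrocytes, TIMP1 fell against ASO (log2 fold change -2.15, adjusted p = 0.0149, lost under 3 of 15 alternatives), and 0 were called against saline.

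Neither region list had a gene called by edgeR with all animals in any contrast. DESeq2 called LHX2 in OTV against saline (adjusted p = 0.0045) and against ASO (adjusted p = 0.0059), and TCF7L2 against ASO (adjusted p = 0.0393). Without ASO replicate 3, edgeR called LHX2 in OTV against saline (adjusted p = 0.0484). The median log2 change of the 4 tested telencephalic genes was -4.98 in OTV against saline and -4.76 in OTV against ASO, where the groups' animals spread widely. OTX2 was at 19.1, 25.1 and 1.65 CPM in saline, 19.7, 21.4 and 9.24 CPM in ASO, and 35.6, 24.8 and 26.3 CPM in OTV animals. TCF7L2 was between 624 and 930 CPM in every animal, and so did not separate the animals in the way the other genes did.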

How the data were processed

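The authors deposited 1 matrix of raw UMI counts and a table of nuclei with the animal, cell type, cluster and doublet score (a fraction from 0 to 1 per the deposited values). Cell Ranger 6.1.2, Seurat 4 and GRCh38.p13 are named in the submitters' processing notes, without roles; features carry symbols (14893) or cynomolgus Ensembl identifiers (14235), and the genome counted against is not stated in the labels. Nuclei were used as deposited, with no further filter or doublet call; the smallest holds 1018 UMIs, and the doublet score reaches 0.850 in astrocytes. Cell types are the authors' own.

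UMI counts were summed per animal and cell type, 1127145 to 9318800 UMIs per animal in astrocytes, and are given as CPM of that sum. The sums of 9 animals were fitted together with edgeR 4.0.16 (TMM, filterByExpr by group, robust quasi-likelihood) in R 4.3.3. Genes with a Benjamini-Hochberg adjusted p under 0.05 over all genes tested count as called. Animals are separate, so p-values measure the spread between animals. Nuclei were thinned to 1000 UMIs (alternative 2000) for shares, odds ratios (0.5 added to each cell, margins of at least 10 nuclei) and correlations of log UMIs. The test was tried on simulated counts with 200 changed genes.

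The genes, lists, tests and alternatives were chosen with earlier results of these data known. Of each list the called genes are named, up to 3 in each direction by adjusted p in a contrast, and LHX2, OTX2 and TCF7L2 always. Some genes of the lists, of the region score and of the likeness ranking are not reported here. By the rule for likeness up to 3 genes are named per gene, with the same sign of correlation in all 9 animals and a positive mean; those of AGT, MFGE8 and SLC6A9 are left out because the correlations were weak. Comparisons within SLC6A11-only nuclei, between cell types, and without the animals whose region score exceeds 2 were added after seeing the data. Alternatives were DESeq2 1.42.0 and its size factors, no filter, the 6 compared animals, cluster 6 only, sums thinned to the smallest total, a term for the region score, and each animal left out.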

Additional observations from a re-analysis of the deposited data

How the results depend on the processing

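No paired analysis was possible because each animal belongs to 1 group and replicate numbers were given in accession order. In ASO against saline 2 astrocyte genes were called; DESeq2 called 70, no filter 13, the 6 compared animals 5, thinned sums 1 and the region score term 4, and leaving out 1 animal gave 1 to 5. In OTV against saline the count was 2094, with 1122 in thinned sums and 882 to 1959 without 1 animal, and in OTV against ASO it was 2990, with 1691 and 1597 to 3173. OTV values of AGT in astrocytes ran over the alternatives from -1.48 to -1.02 against saline and from -1.69 to -1.31 against ASO. AGT was chosen because it was lower in the OTV group, so its kept direction does not support that difference. For AGT in oligodendrocytes, ASO against saline, the log2 fold change was 2.52 among the 6 compared animals (adjusted p = 0.0706), 2.46 without the animals with region scores above 2 (adjusted p = 0.111, edgeR), and 2.22 to 2.73 without 1 animal. DESeq2 called SLC6A9 in oligodendrocytes (-0.43) and SLC6A11 in myeloid nuclei (-4.5), and the latter ran from -4.96 to -3.80 without 1 animal.

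The following ASO against saline changes, none of them called, turned direction. In astrocytes SLC6A11 was -0.11 with the region score term, -0.10 without saline replicate 3 and -0.04 without ASO replicate 1; SLC6A9 was -0.052 without ASO replicate 1, and ADGRV1 0.13 without saline replicate 3. LHX2 was 0.96, 0.32 and 0.18 without saline replicate 3, ASO replicate 1 and ASO replicate 2. OTX2 was 0.052 in DESeq2, and 0.13, 0.55 and 0.29 without saline replicates 1 and 2 and ASO replicate 3. In oligodendrocytes MFGE8 was -0.24 and -0.40 without saline replicate 2 and ASO replicate 2, and ADGRV1 0.24 without saline replicate 3. MFGE8 was 0.032 in OPCs without saline replicate 1 and 0.16 in myeloid nuclei without saline replicate 2, where SLC6A9 was 0.02, and 0.053 without ASO replicate 1. Leaving out 1 animal gave ranges up to 1.49 for SLC6A11, up to 1.66 for SLC6A9, down to -2.79 for ADGRV1, down to -5.16 for LHX2 and down to -0.47 for OTX2 in astrocytes. In oligodendrocytes it gave up to 0.54 for MFGE8 and down to -2.27 for ADGRV1, in OPCs down to -0.83 for MFGE8, and in myeloid nuclei down to -0.41 for SLC6A9 and -1.51 for MFGE8. The cause of these changes was not tested. ITIH3 in astrocytes rests on 5 UMIs, and SLC6A11 in myeloid nuclei of ASO animals on 1 to 6 UMIs each.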
